A study of Mus musculus with 18 samples.

Results

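The question was whether recombinant interleukin-13 (rIL-13) changed the transcriptome of microglia and of macrophages by different amounts after spinal cord injury (SCI). The measure was the interaction, which is the log2 fold change of rIL-13 over PBS in microglia minus the same log2 fold change in macrophages. A positive value means a larger rise or a smaller fall in microglia, and a negative value means a larger rise or a smaller fall in macrophages. The comparison used 12 of the 18 libraries of the series and all 53465 annotated genes, of which 15886 had enough counts to be tested.

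The animals were adult female C57BL/6J mice, 8 to 10 weeks old, with a contusion at the lower thoracic cord. PBS (mice 1, 2 and 3) or 100 ng of rIL-13 (mice 5, 6 and 7) was injected into the cord 48 h after SCI, and cells were sorted 24 h later by their CD45, CD11b and F4/80 staining. Each of the 6 mice gave a microglia library and a macrophage library, so that the 4 groups, PBS microglia, rIL-13 microglia, PBS macrophages and rIL-13 macrophages, held 3 libraries each. All mice carried the injury and the injection, so no group shows resting microglia. The gate follows staining and not origin, and microglia that gain CD45 would enter the macrophage gate. The other 6 libraries, from mice given rIL-4 in place of rIL-13, were used only where named.

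IL-13 binds IL-13Rα1, which then pairs with IL-4Rα. JAK kinases bound to this receptor phosphorylate STAT6, which enters the nucleus and switches on genes of alternative activation such as Retnla and Mrc1. IL-13Rα2, a high-affinity decoy receptor, takes up IL-13 without this signal, and SOCS proteins damp it. In myeloid cells this program is associated with repair, matrix handling and lower inflammatory gene expression.

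The libraries held between 35961305 and 41960631 counts. Genes with at least 1 count numbered 17620 to 18371 in PBS microglia and 16132 to 16832 in rIL-13 microglia, which did not overlap, and 17553 to 18174 and 16867 to 17591 in PBS and rIL-13 macrophages. RNA input was low and varied between samples, and fragments carried no molecular identifiers, so a gene at 0 may have been present. Fibroblast and pericyte marker genes summed to between 127161 and 188622 normalized counts in PBS microglia and between 81341 and 430899 in rIL-13 microglia, with mouse 6 the highest, against at most 2677 in any macrophage library. In the macrophages of mouse 6 the neutrophil markers summed to 142857 normalized counts, whereas the other rIL-13 macrophages lay at 28144 and 28936. The 29 microglia identity genes summed to 523319 to 933917 in PBS microglia and still to 239297 to 352996 in PBS macrophages. In these bulk samples, fewer cells of a type and less RNA per cell cannot be told apart. The part of these markers in the results below was not tested.

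The promoters of 5 genes are shown here. Retnla and Pdcd1lg2, whose interactions were not called by edgeR, are shown as examples of genes that rose with rIL-13 in both cell types, and were picked among these because their promoters hold TTC and GAA separated by 4 bases of any kind, the spacing that STAT6 is known to bind, printed in capitals. Pdia4, Tnfsf8 and Pxylp1 are the genes whose response differed between the cell types, and theirs do not hold it. Sequences are from RefSeq (GRCm38.p6), 5′ to 3′ on the strand of the gene, from 250 bases before to 50 bases after the RefSeq gene start. The stretch of Pxylp1 lies inside the span given for this gene below (96823336 to 96892669), and a start at the end of that span was not searched.
Retnla, chr16:48842359-48842658, plus strand: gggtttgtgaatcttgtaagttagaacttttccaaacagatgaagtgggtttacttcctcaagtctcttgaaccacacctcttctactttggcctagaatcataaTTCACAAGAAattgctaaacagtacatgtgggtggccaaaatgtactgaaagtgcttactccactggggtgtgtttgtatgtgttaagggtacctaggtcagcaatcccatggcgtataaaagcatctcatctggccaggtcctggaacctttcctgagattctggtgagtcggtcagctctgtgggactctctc
Pdcd1lg2, chr19:29410669-29410968, plus strand: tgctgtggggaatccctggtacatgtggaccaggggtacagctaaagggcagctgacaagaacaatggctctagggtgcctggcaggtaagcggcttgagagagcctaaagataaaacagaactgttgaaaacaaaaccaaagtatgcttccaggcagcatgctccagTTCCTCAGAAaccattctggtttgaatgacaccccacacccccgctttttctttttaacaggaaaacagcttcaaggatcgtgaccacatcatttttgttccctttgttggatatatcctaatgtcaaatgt
Pdia4, chr6:47813463-47813762, minus strand: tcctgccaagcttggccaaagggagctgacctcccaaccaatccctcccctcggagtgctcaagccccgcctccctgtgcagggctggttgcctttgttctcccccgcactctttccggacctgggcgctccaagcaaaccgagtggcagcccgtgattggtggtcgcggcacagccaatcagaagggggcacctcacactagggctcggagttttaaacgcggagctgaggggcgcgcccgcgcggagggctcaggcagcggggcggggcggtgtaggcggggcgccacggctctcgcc
Tnfsf8, chr4:63861235-63861534, minus strand: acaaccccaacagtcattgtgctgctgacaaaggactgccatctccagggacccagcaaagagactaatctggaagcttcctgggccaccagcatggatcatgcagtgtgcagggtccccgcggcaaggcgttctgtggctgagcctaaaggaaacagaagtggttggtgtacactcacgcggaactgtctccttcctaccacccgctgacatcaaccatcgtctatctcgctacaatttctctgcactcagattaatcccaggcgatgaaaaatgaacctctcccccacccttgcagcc
Pxylp1, chr9:96889425-96889724, minus strand: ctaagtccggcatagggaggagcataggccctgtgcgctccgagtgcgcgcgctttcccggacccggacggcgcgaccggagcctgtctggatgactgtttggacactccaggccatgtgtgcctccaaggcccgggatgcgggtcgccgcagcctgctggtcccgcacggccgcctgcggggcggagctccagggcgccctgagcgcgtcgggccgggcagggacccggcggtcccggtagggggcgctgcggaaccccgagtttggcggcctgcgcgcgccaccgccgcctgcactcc
This motif is its own reverse complement, so that a match counts on both strands. It began 145 bases before the start of Retnla and 82 bases before that of Pdcd1lg2. It was in 6.95% of all 32851 mouse promoters of this length and in 6.78% of the 11249 tested genes with a promoter sequence. Of the alternative activation genes, 11 of the 35 with a sequence held it (31.4%), 3 of which were the near-identical Sprr2a1, Sprr2a2 and Sprr2a3. Of the genes that rose in both cell types, 8 of 43 did (18.6%). A match is a description of the sequence and not a binding site.

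The rIL-13 response was called in 172 genes in microglia (105 higher, 67 lower) and in 230 genes in macrophages (118 higher, 112 lower) by the same edgeR fit. Here and below, called means an adjusted p under 0.05 in this edgeR fit of 12 libraries, unless another test is named. These counts depended on the test: they were 754 and 704 with DESeq2, 78 and 864 with limma voom, 37 and 523 with each cell type fitted apart, and 43 and 51 without PBS mouse 3. The biological coefficient of variation was 0.658 in microglia alone and 0.287 in macrophages alone, and the main fit shares 1 estimate of the spread. Of all genes tested, 0.661% rose and 0.422% fell in microglia, and 0.743% rose and 0.705% fell in macrophages. The calls overlapped in direction: 52 genes rose in both cell types, 14 fell in both, and 0 were called in opposite directions. The difference between the cell types was called in 3 genes (0.0189% of those tested), 1 with an interaction above 0 (0.00629%) and 2 below 0 (0.0126%). An unadjusted p under 0.05 was reached by 1038 genes (6.53%), 596 above 0 (3.75%) and 442 below 0 (2.78%). None of the 52 genes that rose in both was called different in size, and 13 of them had an unadjusted p under 0.05.

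The count of calls depended on the test. DESeq2 called 162 of 15778 genes (1.03%), including all 3, and 82 of the 162 (50.6%) had a group with at most 3 counts in each of its libraries. limma voom called 0, with 959 genes at an unadjusted p under 0.05. With the mouse as a block, edgeR called 3 others, all below 0: Il1r2, Ccdc80 and Gja1. Without rIL-13 mouse 6, 13 genes were called, including all 3, while leaving out PBS mouse 1, 2 or 3 left 0 calls, with 812, 831 and 780 genes at an unadjusted p under 0.05. Leaving out rIL-13 mouse 5 or 7 left 1 call each, Cd1d1 and Acta2, which are not among the 3.

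**Figure D1:**
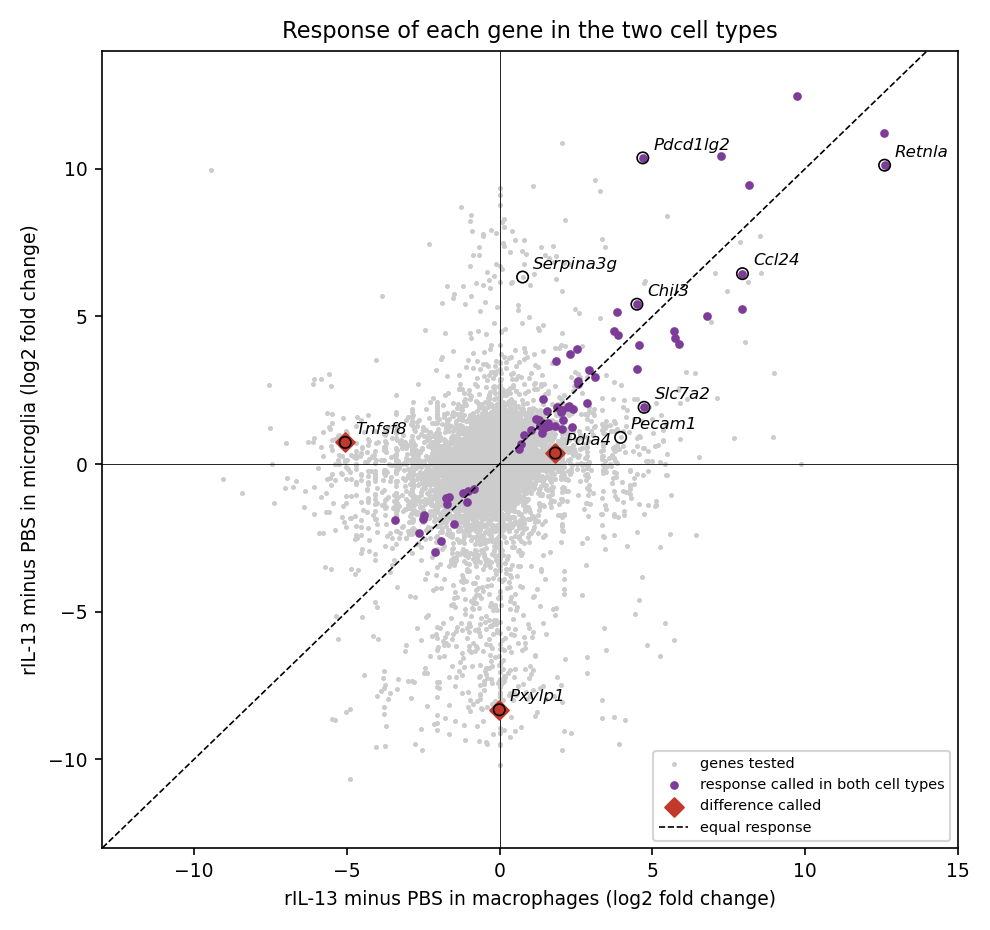
Each point is a tested gene, with its rIL-13 response in macrophages on the x axis and in microglia on the y axis (log2 fold change, 3 mice per group). Genes called in both cell types (purple), apart from the 3 genes called different (red diamonds), labelled genes (open circles) and the line of equal response (dashed), lie on the same side of 0 in each cell type.

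Tnfsf8 (ENSMUSG00000028362.2, chromosome 4, 63831308 to 63861347), which encodes CD30 ligand, a TNF family protein, fell with rIL-13 in macrophages and did not pass the test in microglia. Its normalized counts were 206.6, 204.4 and 209.8 in PBS microglia and 383.2, 139.3 and 509.4 in rIL-13 microglia. They were 197.1, 174.9 and 201.7 in PBS macrophages and 9.20, 4.57 and 3.39 in rIL-13 macrophages. Both PBS groups thus lay at nearly the same level, and only the rIL-13 macrophages lay apart from all other libraries. The log2 fold change was -5.05 ± 0.57 (SE) in macrophages (adjusted p = 0.00114) and 0.73 ± 0.46 in microglia (adjusted p = 0.565). The interaction was 5.79 ± 0.73 (95% interval 4.20 to 7.37, adjusted p = 0.0353, from 3.80e-10 to 0.527 over the alternatives). With the mouse as a block it was 5.66 (adjusted p = 0.0635).

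Pdia4 (ENSMUSG00000025823.9, chromosome 6, 47796141 to 47813430), a disulfide isomerase that folds secreted proteins in the endoplasmic reticulum, rose in macrophages. Normalized counts were 16626, 15505 and 16576 in PBS macrophages and 54084, 52450 and 66274 in rIL-13 macrophages, a change of 1.83 ± 0.14 on the log2 scale (adjusted p = 6.12e-05). In microglia they were 9672, 12273 and 10221 with PBS and 13187, 13924 and 14536 with rIL-13, which did not overlap, a change of 0.37 ± 0.14 that was not called (adjusted p = 0.232). The interaction was -1.45 ± 0.19 (95% interval -1.87 to -1.04, adjusted p = 0.0353, from 1.88e-11 to 0.527 over the alternatives), and -1.44 with the mouse as a block (adjusted p = 0.0513). It had the smallest error of the 3 calls. In the rIL-4 mice, which share these PBS libraries, the corresponding interaction of Pdia4 was -1.51 (adjusted p = 0.00727). Those of Tnfsf8 and Pxylp1 were 1.94 and -1.30 (adjusted p = 0.66 and 0.911).

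Pxylp1 (ENSMUSG00000043587.15, chromosome 9, 96823336 to 96892669), a phosphatase acting on the xylose of proteoglycan linkers, was lost from the rIL-13 microglia libraries. Normalized counts were 63.5, 364.6 and 227.9 in PBS microglia and 0.921, 0 and 0.773 in rIL-13 microglia, from 1, 0 and 1 counts. Macrophages held 223.1, 159.1 and 142.8 with PBS and 207.8, 139.4 and 174.9 with rIL-13, so that these groups overlapped. Against a floor of 3 counts per library, Pxylp1 was at least 86.7-fold lower in rIL-13 than in PBS microglia, and the interaction was -6.43 or lower. The fitted interaction, which depends on the prior count, was -8.31 ± 1.05 (adjusted p = 0.0353, from 2.07e-07 to 0.527 over the alternatives), and adjusted p was 0.158 with the mouse as a block. Of all tested genes, 2.82% had at most 3 counts in each rIL-13 microglia library, 1.23% in each PBS microglia library, and 7.09% and 8.67% in each PBS and rIL-13 macrophage library. Of the genes with an unadjusted p under 0.05, these shares were 17.1%, 5.01%, 5.68% and 10.6%.

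**Figure D2:**
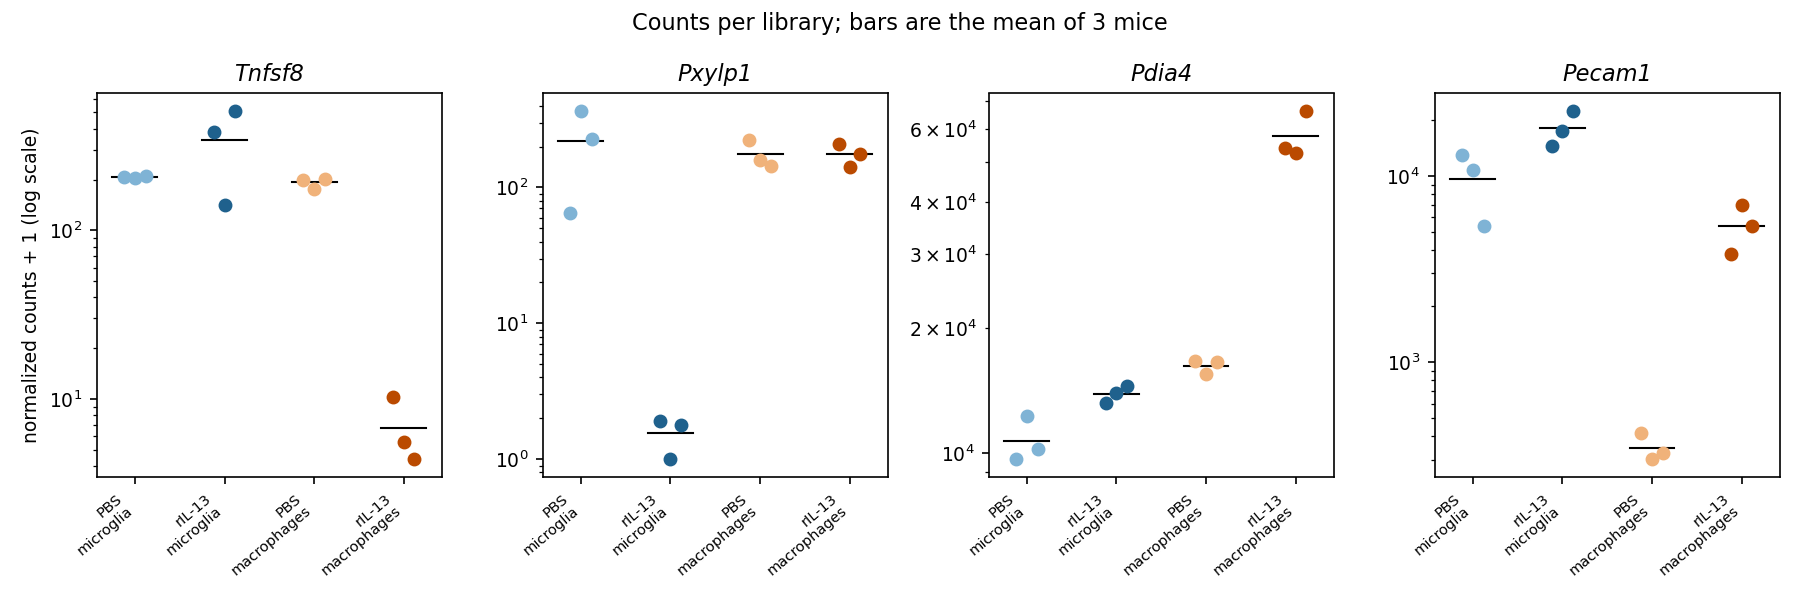
Normalized counts plus 1 (log axis) of Tnfsf8, Pxylp1, Pdia4 and Pecam1 in the 12 libraries, with points for mice and bars for the mean of 3. Tnfsf8 was low in rIL-13 macrophages alone, Pxylp1 in rIL-13 microglia alone, and Pdia4 was highest in rIL-13 macrophages.

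The next genes by p were not called by edgeR, and they are given as values. DESeq2 called all of them. Among negative interactions, Pecam1, an adhesion receptor of endothelial cells, platelets and leukocytes, stood at 416.6, 299.9 and 324.1 normalized counts in PBS macrophages and at 3832, 6990 and 5419 in rIL-13 macrophages, a response of 3.96 ± 0.35 (adjusted p = 0.000135). In microglia its counts ran from 5371 to 12948 with PBS and from 14432 to 22389 with rIL-13, a response of 0.90 ± 0.31 (adjusted p = 0.207). The interaction of Pecam1 was -3.06 ± 0.45 (adjusted p = 0.0617), and it passed the threshold in the DESeq2 test, with no filter on low counts, under a minimum of 10 counts per library and in the fit of all 18 libraries (adjusted p from 2.81e-08 to 0.527 over the alternatives). The other 13 endothelial markers summed to 1991 to 2593 normalized counts in PBS macrophages and 1787 to 2451 in rIL-13 macrophages, which overlapped, and to 51450 to 104653 and 86500 to 163834 in PBS and rIL-13 microglia. Among them, Flt1, a VEGF receptor, rose in macrophages from 134.5, 370.4 and 269.7 to 967.8, 1309 and 1239 (2.18, adjusted p = 0.0138), with an interaction of -1.67 ± 0.50 (adjusted p = 0.445).

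Tek, the angiopoietin receptor, and Ecscr, an endothelial surface protein listed here with the microglia identity genes, changed the other way in macrophages. Tek fell from 15.3, 20.6 and 15.9 to 1.32, 1.14 and 3.39 normalized counts, at least 4.82-fold lower against the floor (adjusted p = 0.0253), and Ecscr from 367, 227.1 and 346.8 to 99.9, 104 and 102.7 (-1.62, adjusted p = 0.0059). Both were far higher in the microglia libraries, where Tek ran from 2906 to 7576 and Ecscr from 2256 to 3767. Their interactions were at least 2.82 against the floor and 1.35 ± 0.32, and neither was called by edgeR (adjusted p = 0.132 and 0.272), while DESeq2 called both (adjusted p = 0.00283 and 0.0386). With rIL-4 in place of rIL-13, by edgeR on all 18 libraries, the fitted interactions of Tek, Ecscr and Flt1 were 3.17, 4.41 and -2.46 (adjusted p = 0.0393, 0.000684 and 0.0393). Of the 14 endothelial markers, 5 had an unadjusted p under 0.05 above 0 and 2 below 0 (Pecam1 and Flt1), beside 3.75% and 2.78% of all genes. The list's median interaction was 1.06.

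Zfp174, a zinc finger gene, and AA414768, a processed pseudogene, were at 0 counts in all 3 rIL-13 microglia libraries. Zfp174 had 83.4, 45.8 and 84.1 normalized counts in PBS microglia and 44.0 to 67.3 in the 6 macrophage libraries, and its fall with rIL-13 was at least 28.2-fold. AA414768 was at least 23.2-fold lower. Both are low-count genes, and neither interaction was called by edgeR on 12 libraries (adjusted p = 0.0617 and 0.0951). DESeq2 called both (adjusted p = 2.45e-06 and 8.60e-05), and edgeR on all 18 libraries called Zfp174 (adjusted p = 0.0187).

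Among positive interactions, Serpina3g, an inhibitor of lysosomal cathepsins, had 136.5, 93.3 and 41.6 normalized counts in PBS microglia and 5791, 4668 and 11456 in rIL-13 microglia, a rise of 6.33 ± 0.57 (adjusted p = 0.000314). In macrophages it stayed between 2.36 and 25.1 in all 6 libraries. Its interaction was 5.58 ± 0.87 (adjusted p = 0.0943), which passed the threshold with DESeq2 (1.01e-09), with no filter on low counts (0.0168) and with all 18 libraries (0.0402), and as Serpina3g belongs to a cluster of near-identical genes its counts are uncertain. Dhrs9, a retinol dehydrogenase, rose in microglia from 6.64, 7.63 and 18.1 to 184.2, 338.3 and 334.7 normalized counts (4.71, adjusted p = 0.000314). In macrophages Dhrs9 went from 884 to 1213 with PBS to between 1776 and 3546 with rIL-13 (1.41, adjusted p = 0.0739), and its interaction was 3.30 ± 0.53 (adjusted p = 0.0951), which passed with DESeq2 (3.37e-06) and with no filter on low counts (0.0338). The macrophage level of Dhrs9 was the higher in every mouse.

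F2r, the thrombin receptor, and Gimap6, a GTPase of immune cells, fell in macrophages and did not pass the test in microglia. Gimap6 went from 28.3, 37.6 and 49.9 to 18.4, 13.7 and 12.4 normalized counts in macrophages (-1.38, adjusted p = 0.0432), and from between 872.8 and 1399 to between 2044 and 2300 in microglia (0.82, adjusted p = 0.132). Its interaction was 2.20 ± 0.38 (adjusted p = 0.113). F2r had at most 1 count in each rIL-13 macrophage library, and its interaction was at least 2.75 against the floor (adjusted p = 0.113). With rIL-4 in place of rIL-13, by edgeR on all 18 libraries, the interactions of Pecam1, Serpina3g, Dhrs9 and Gimap6 were -3.70, 5.23, 4.61 and 2.39. Their adjusted p was 0.00185, 0.00812, 0.00167 and 0.00764. The rIL-4 interactions of Zfp174, AA414768 and F2r were 0.96, -2.02 and 1.54 (adjusted p = 0.772, 0.766 and 0.870).

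The difference between the cell types within each mouse is plotted for these 10 genes as a description. That the 3 rIL-13 mice do not overlap the 3 PBS mice carries no support, because the genes were chosen by their p in this contrast and, for the called genes, by this non-overlap. An exact permutation test over 3 against 3 mice cannot go below p = 0.1 (two-sided). Such non-overlap held for 13.4% of all tested genes, 7.05% upward and 6.33% downward.

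**Figure D3:**
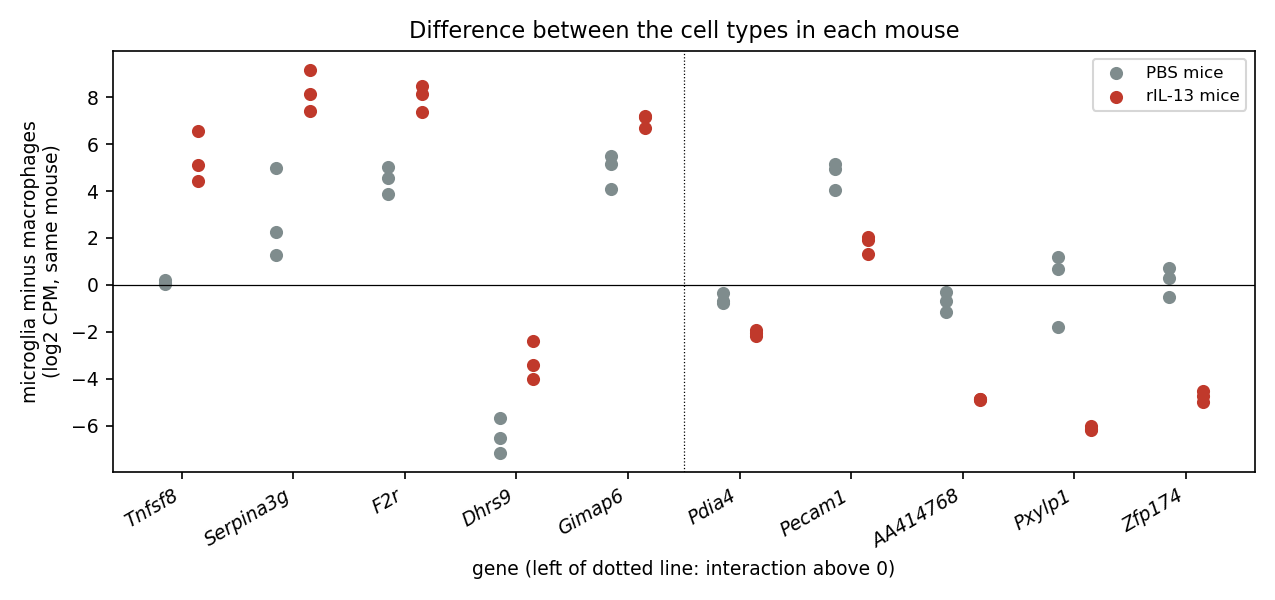
Microglia minus macrophages within each mouse (log2 CPM with a prior count of 2) for the 10 genes with the lowest p, 5 in each direction. Grey points are PBS mice and red points are rIL-13 mice, and in each gene the 3 red points lie outside the range of the 3 grey points.

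With the mouse as a block, 3 genes were called that were not called without it. DESeq2 called all 3 as well, and Ccdc80 and Gja1 were also called without rIL-13 mouse 6 (adjusted p = 0.0295 and 0.0493). Il1r2, the decoy receptor of IL-1, had 1395, 3144 and 1486 normalized counts in PBS macrophages and 1273, 8370 and 2278 in rIL-13 macrophages, while in microglia it went from 22.8, 91.6 and 22.6 to 0, 0.829 and 0. In macrophages the neutrophil marker Cxcr2 was highest in the same mice, with 802.5, 2265 and 1304 and then 953.3, 6283 and 1122 normalized counts, and the part of neutrophils in the values of Il1r2 was not tested. The interaction of Il1r2 was at most -5.16 against the floor, and the blocked adjusted p was 0.00706. Ccdc80, a matrix protein, rose in macrophages from 102.7, 97.1 and 117.9 to 597, 2225 and 1220 (3.67, adjusted p = 0.00435) but not in microglia (0.31, adjusted p = 0.872). Gja1, connexin 43, rose in macrophages from 226.6, 303.6 and 230.1 to 1886, 15241 and 3981 (4.80, adjusted p = 0.0124), with the highest value in mouse 6, whose fibroblast and neutrophil marker sums were also the highest. Blocked adjusted p was 0.00706 for Ccdc80 and 0.0183 for Gja1, against 0.178 and 0.230 without the block. With rIL-4 in place of rIL-13, by edgeR on all 18 libraries, the interactions of Il1r2, Ccdc80 and Gja1 were 0.934, -4.155 and -5.127 (adjusted p = 0.928, 0.0233 and 0.0415).

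The cell type difference of the genes with a low p was also read in the 6 rIL-4 libraries. Their values were not in the contrast, but rIL-4 acts through IL-4Rα and STAT6 as well, so the treatment can move the same genes there and the shares are given as a description. Of the 13433 genes tested there, 13.5% were higher in microglia and 9.91% higher in macrophages. Of the 596 genes with a positive interaction at an unadjusted p under 0.05, 520 were tested there, and the shares among these were 39.4% and 11.2%. Of the 442 with a negative interaction 333 were, with shares of 7.51% and 27.3%.

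Of 16 receptor and signalling genes tested, 0 were called by edgeR or by DESeq2. By edgeR 2 had an unadjusted p under 0.05 (Socs2 below 0 and Il2rg above 0), beside 6.53% of all genes, and the median interaction was -0.01, beside 0.05 over all genes. Il4ra, the shared receptor chain, had an interaction of -0.36 ± 0.64, Il13ra1 of 0.10 ± 0.30 and Stat6 of 0.13 ± 0.22 (adjusted p = 0.9999 for each), and each error was larger than the value. Il4ra ran from 16454 to 64745 normalized counts in rIL-13 macrophages, with the highest value in mouse 6. Socs1 rose in microglia (2.71, adjusted p = 0.0115) and in macrophages (2.57, adjusted p = 0.0118), with an interaction of 0.14 ± 0.56. Socs2 rose in macrophages from 109.8, 194.3 and 109.9 to 733.7, 1579 and 1013 normalized counts (3.01, adjusted p = 0.00254) and was 334.7 to 681.8 and 1100 to 1780 in PBS and rIL-13 microglia (1.45, adjusted p = 0.0884), an interaction of -1.56 ± 0.51 (adjusted p = 0.498). Il2rg, the common γ chain of the type I IL-4 receptor, which IL-13 does not use, had an interaction of 0.73 ± 0.31 (adjusted p = 0.699).

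The decoy receptor Il13ra2 had counts in a single group of the 4. They were 139, 112 and 31 in the rIL-13 microglia of mice 5, 6 and 7, and 0 in the other 9 libraries, a rise in microglia of 30.2-fold or more against the floor. In the rIL-4 mice, microglia held 0, 184 and 5 counts and macrophages 0 in all 3 libraries. The microglia response was not called (adjusted p = 0.0914). As both macrophage groups were at 0, the interaction has no finite error and its test cannot be read. Fibroblasts can also express this gene, and fibroblast and pericyte markers had counts in the microglia libraries. With rIL-13 their sum was 430899 normalized counts in mouse 6 and between 81341 and 100375 in mice 5 and 7. PBS microglia, with 0 counts of Il13ra2, summed to between 127161 and 188622. The part of fibroblasts in this result was not tested.

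Of 48 alternative activation genes tested, 23 rose in microglia and 24 in macrophages, beside 0.661% and 0.743% of all genes, while 0 and 3 fell, beside 0.422% and 0.705%. The median response was 1.89 in microglia and 2.34 in macrophages, and the median interaction was -0.08 (-0.19 with genes near 0 at their bound, and -0.34 to 0.03 over the alternatives). Of their interactions 0 were called by edgeR and 5 by DESeq2 (Slc7a2, Pdcd1lg2, Fn1, Ch25h and Rnase2a), which called 1.03% of all genes. By edgeR 6 had an unadjusted p under 0.05 above 0 and 10 below 0, beside 3.75% and 2.78% of all genes.

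Chil3, a chitinase-like lectin whose reads can be shared with Chil4, rose by 5.41 in microglia and 4.50 in macrophages, with an interaction of 0.92 ± 0.70.

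Retnla, a secreted resistin-like protein, went from at most 7 counts in any PBS library to 7020, 1512 and 1961 normalized counts in rIL-13 microglia, and to 9913, 9521 and 4881 in rIL-13 macrophages. Mrc1, the mannose receptor CD206, went from 299.5, 842.9 and 895.4 to 4234, 9416 and 5476 in microglia and from 2068, 2460 and 2088 to 40388, 58519 and 51828 in macrophages. Its responses were 3.23 and 4.51, and the interaction was -1.28 ± 0.52 (adjusted p = 0.666). Clec7a, the β-glucan receptor dectin-1, had responses of 1.86 and 2.41, with an interaction of -0.55 ± 0.21 (adjusted p = 0.653).

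Slc7a2, an arginine transporter, had the lowest p of the list. Normalized counts were 601.9, 574.4 and 716.3 in PBS macrophages and 16143, 19515 and 14675 in rIL-13 macrophages (4.73, adjusted p = 0.000129), against 488.1, 1136 and 390.7 and then 2076, 3562 and 1999 in microglia (1.92, adjusted p = 0.0316). The groups started from a similar level and the rIL-13 macrophages ended highest, but the interaction of -2.81 ± 0.50 was not called (adjusted p = 0.132, from 2.95e-05 to 0.584 over the alternatives). In the rIL-4 mice, with the same PBS libraries, it was -2.54 (adjusted p = 0.0393).

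Pdcd1lg2, the PD-1 ligand PD-L2, whose promoter is printed above, had 0 counts in all PBS microglia and 277.3, 76.3 and 143 normalized counts in rIL-13 microglia, at least 61.3-fold higher. In macrophages it went from 44.9, 57.1 and 44.2 to 1165, 1673 and 940. The fitted interaction of 5.68 depends on the prior count, and against the floor it was at least 1.25 (adjusted p = 0.255). Fn1, fibronectin, rose in macrophages (1.78, adjusted p = 0.0205) but was not called in microglia (0.11, adjusted p = 0.953). Ch25h, cholesterol 25-hydroxylase, fell in macrophages from 985.4, 562.2 and 616.5 to 178.8, 320 and 145.6 (-1.75, adjusted p = 0.0232), and was 0.15 in microglia (adjusted p = 0.927). The interactions of Fn1 and Ch25h were -1.67 ± 0.46 and 1.89 ± 0.46 (adjusted p = 0.377 and 0.284).

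**Figure D4:**
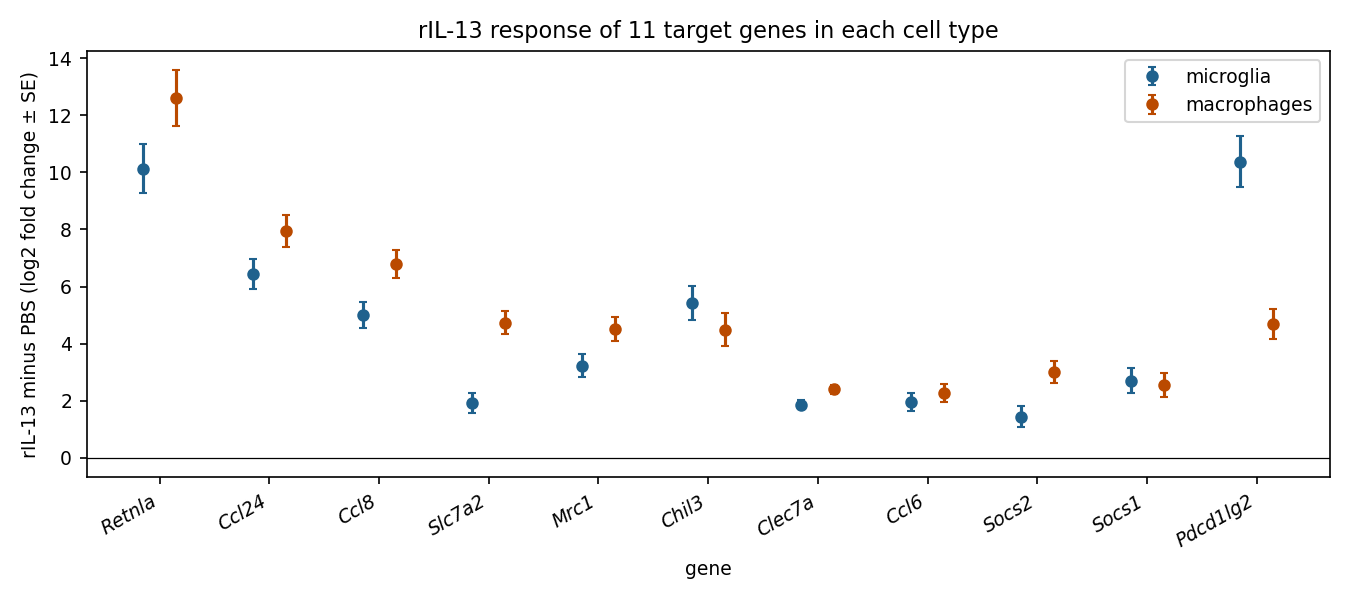
Response to rIL-13 (log2 fold change ± SE, 3 mice per group) of 11 genes of alternative activation and IL-13 signalling in microglia (blue) and macrophages (orange). All values lie above 0, no difference between the cell types was called by edgeR (DESeq2 called those of Slc7a2 and Pdcd1lg2), and the microglia value of Pdcd1lg2 and the macrophage value of Retnla start from at most 3 counts per library and depend on the prior count.

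Of 25 CC and CXC chemokines tested, 4 rose in each cell type, beside 0.661% of all genes in microglia and 0.743% in macrophages, and 1 fell in each. No interaction was called by edgeR, where 6 had an unadjusted p under 0.05, beside 6.53% of all genes. DESeq2 called Cxcl9, a ligand of CXCR3, and Cxcl11, annotated here as a polymorphic pseudogene, both with at most 3 counts in each rIL-13 macrophage library. Cxcl9 had 0, 102 and 0 normalized counts in the rIL-13 microglia of mice 5, 6 and 7, so its fitted interaction rests on mouse 6. The median interaction of the 25 chemokines was -0.28, and it turned to 0.14 with genes near 0 at their bound and to 0.48 without rIL-13 mouse 6. Ccl24, an eosinophil attractant, had responses of 6.45 in microglia and 7.95 in macrophages, and its counts reached 193003 in the macrophages of mouse 6. Ccl8, a monocyte attractant, had responses of 5.01 and 6.79, and Ccl6 of 1.95 and 2.27. Their interactions were -1.50 ± 0.60, -1.78 ± 0.58 and -0.31 ± 0.42. Cxcl16, a membrane-bound chemokine, fell in macrophages (-1.21, adjusted p = 0.0377) and was -0.14 in microglia (adjusted p = 0.905), an interaction of 1.07 ± 0.35 (adjusted p = 0.502). Ccl22, a ligand of CCR4, was at 0 in 5 of 6 microglia libraries and had 71.3 normalized counts in mouse 6, so its fitted interaction rests on that library.

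Of 34 inflammatory genes tested, 1 rose and 3 fell in microglia, beside 0.661% and 0.422% of all genes. In macrophages 1 rose and 2 fell, beside 0.743% and 0.705% of all genes, and the median interaction of the list was -0.17. Without rIL-13 mouse 6 that median was 0.56. Tlr2, a receptor for bacterial lipoproteins, fell in microglia from 9991, 7704 and 10442 to 3108, 1241 and 2216 normalized counts (-2.10, adjusted p = 0.00331), and was -1.14 in macrophages (adjusted p = 0.0657), an interaction of -0.96 ± 0.38 (adjusted p = 0.653).

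Of 36 interferon-stimulated genes tested, 28 had an interaction above 0, beside 54.2% of all genes. An unadjusted p under 0.05 was reached by 5, all of them above 0, beside 3.75% of all genes, and the median interaction was 0.34, from 0.13 to 0.53 over the alternatives. In macrophages 2 of the 36 fell, and in microglia 0, beside 0.705% and 0.422% of all genes. Ifit3b, which encodes an RNA-binding antiviral protein, had 118, 212.5 and 625.6 normalized counts in PBS macrophages and 14.5, 28.6 and 28.2 in rIL-13 macrophages (-3.73, adjusted p = 0.0139), against 390.9 to 502 and 163 to 452.8 in microglia (-0.38, adjusted p = 0.87). Its interaction was 3.35 ± 0.83, which edgeR did not call (adjusted p = 0.291) and DESeq2 called (adjusted p = 0.0158), and its reads can be shared with the near-identical Ifit3. Ifit3 was the other called fall in macrophages (-3.07, adjusted p = 0.0351), with an interaction of 2.15 ± 0.83. Ifit1 and Gbp3, a guanylate-binding protein, had interactions of 2.16 ± 0.71 and 1.23 ± 0.47. PBS macrophages varied widely in these genes: Ifit1 had 395.4, 932.6 and 1780 normalized counts in mice 1, 2 and 3.

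MHC class II genes had no change called by edgeR in either cell type. Of 11 tested, the median interaction was 0.31, and it was -0.70 without rIL-13 mouse 5. Cd74, the invariant chain, had 1018, 1217 and 634.9 normalized counts in PBS microglia and 4827, 1712 and 2597 in rIL-13 microglia (1.67, adjusted p = 0.0557), while macrophages were between 11560 and 21989 in both conditions (0.03, adjusted p = 1.0). Its interaction was 1.65 ± 0.51 (adjusted p = 0.466).

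Of 29 microglia identity genes tested, 7 fell in macrophages and 1 in microglia, beside 0.705% and 0.422% of all genes. The median response was -1.02 in macrophages and -0.73 in microglia, and the median interaction was 0.27, from 0.05 to 0.50 over the alternatives and 0.50 without rIL-13 mouse 6. Fcrls, an Fc receptor-like protein, had 20815, 10915 and 21415 normalized counts in PBS macrophages and 7064, 3982 and 4451 in rIL-13 macrophages (-1.78, adjusted p = 0.0388). Cx3cr1, the fractalkine receptor, and Tmem119 fell there as well, by 1.98 (adjusted p = 0.0379) and by 1.72 (adjusted p = 0.0347). Their responses in microglia were -1.17 and -0.99 and were not called (adjusted p = 0.211 and 0.209), and their interactions were 0.82 ± 0.57 and 0.72 ± 0.48. P2ry12, an ADP receptor, had responses of -0.84 and -0.69, neither of which was called. How far these changes reflect a different mix of cells in the macrophage gate was not tested.

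Damage-associated microglia genes had a median interaction of 0.02 over 31 genes (-0.13 to 0.13 over the alternatives), with 1 unadjusted p under 0.05 above 0 and 2 below, beside 3.75% and 2.78% of all genes. Apoe, a lipid carrier, and Trem2, a lipid receptor of phagocytes, had interactions of 0.35 ± 0.57 and 0.15 ± 0.44. Lgals3, galectin-3, rose in microglia from 11442, 20143 and 12350 to 38161, 28653 and 32067 normalized counts (1.17, adjusted p = 0.0325), and was 0.19 in macrophages (adjusted p = 0.9), an interaction of 0.98 ± 0.31 (adjusted p = 0.485). The 27 monocyte and macrophage markers had a median of 0.17, which was 0.51 without rIL-13 mouse 6. Their summed level was 70205 to 118393 normalized counts in PBS microglia and 285841 to 374638 in rIL-13 microglia. Most of the latter was Chil3, a gene on this list that rose with rIL-13 in both cell types. Chil3 had 182105, 186644 and 268803 normalized counts in rIL-13 microglia, against 1953, 9867 and 3134 with PBS. The sum rose in macrophages as well, from between 727436 and 878980 to between 2801577 and 3958471. The part of monocytes and macrophages in the values of Lgals3 and S100a4 was not tested. S100a4, a calcium-binding protein of motile cells, rose in microglia (1.64, adjusted p = 0.0103), with an interaction of 1.01 ± 0.35.

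Lysosomal and phagocytic genes had positive interactions in 31 of 34 cases, beside 54.2% of all genes, but 2 had an unadjusted p under 0.05, beside 6.53% of all genes. Their median was 0.26, and from 0.20 to 0.29 over the alternatives. The median response was -0.16 in microglia and -0.39 in macrophages. Gas6, a bridging molecule for the uptake of dying cells, was the member that fell in macrophages (-1.12, adjusted p = 0.00518), from 7409, 5764 and 6194 to 3331, 2906 and 2663 normalized counts. In microglia it was -0.59 (adjusted p = 0.114), an interaction of 0.53 ± 0.23 (adjusted p = 0.693).

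The 74 nuclear-encoded respiratory chain genes had a median interaction of -0.04 and the 13 mitochondrially encoded ones of 0.22, and 0 genes of either list had an unadjusted p under 0.05 or a called response. The 24 glycolysis genes had a median of -0.06, with Hk2, hexokinase 2, at -1.16 ± 0.40 and Pdk1 at -0.56 ± 0.21 (adjusted p = 0.534 and 0.606). Cholesterol and fatty acid synthesis genes had a median of -0.21, and 19 of 27 lay below 0, beside 45.8% of all genes. Mvd, an enzyme of the mevalonate pathway, rose in macrophages from 512.2, 442 and 533.8 to 1031, 1239 and 1193 normalized counts (1.22, adjusted p = 0.00943). It ran from 532.6 to 597.1 and from 390.6 to 565.6 in PBS and rIL-13 microglia. The interaction of Mvd was -1.45 ± 0.27, which edgeR did not call (adjusted p = 0.132) and DESeq2 called (adjusted p = 5.15e-05). Lipid efflux and storage genes had a median of 0.35 over 19 genes, with Nr1h3, the oxysterol receptor LXRα, at 1.12 ± 0.35 (adjusted p = 0.474). Of the 15 polyamine and arginine genes, Ass1, which makes argininosuccinate, rose in microglia (1.54, adjusted p = 0.0335), with an interaction of 0.99 ± 0.41 (adjusted p = 0.677). The 40 cell cycle genes had a median of 0.07, and 0 had an unadjusted p under 0.05.

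Immediate early genes, which also respond to tissue dissociation, had a median interaction of -0.06 over 22 genes, which turned to 0.34 without rIL-13 mouse 6. Fos fell in microglia from 13216, 12736 and 10133 to 3758, 5156 and 2904 normalized counts (-1.61, adjusted p = 0.00516) and Egr1 by 1.20 (adjusted p = 0.0325). In macrophages their responses were -0.58 and -0.19 and were not called, and the interactions were -1.03 ± 0.31 and -1.01 ± 0.32 (adjusted p = 0.445 and 0.476). Atf3 fell in macrophages (-1.17, adjusted p = 0.0372), with an interaction of 0.85 ± 0.34.

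Extracellular matrix genes had a median of 0.41 over 35 genes (0.01 to 0.58 over the alternatives), with 5 unadjusted p under 0.05 above 0 and 2 below, beside 3.75% and 2.78% of all genes. Col6a1, a collagen chain, had 2405, 2476 and 3436 normalized counts in PBS microglia and 11679, 39355 and 9503 in rIL-13 microglia (2.86, adjusted p = 0.0347), with at most 20.3 in any macrophage library. Its highest value was in mouse 6, which also had the highest fibroblast marker sum. Mmp12, the macrophage elastase, went from 267.7 to 356.4 to between 616.8 and 2332 in microglia (2.10, adjusted p = 0.049), with an interaction of 1.81 ± 0.61 (adjusted p = 0.52).

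**Figure D5:**
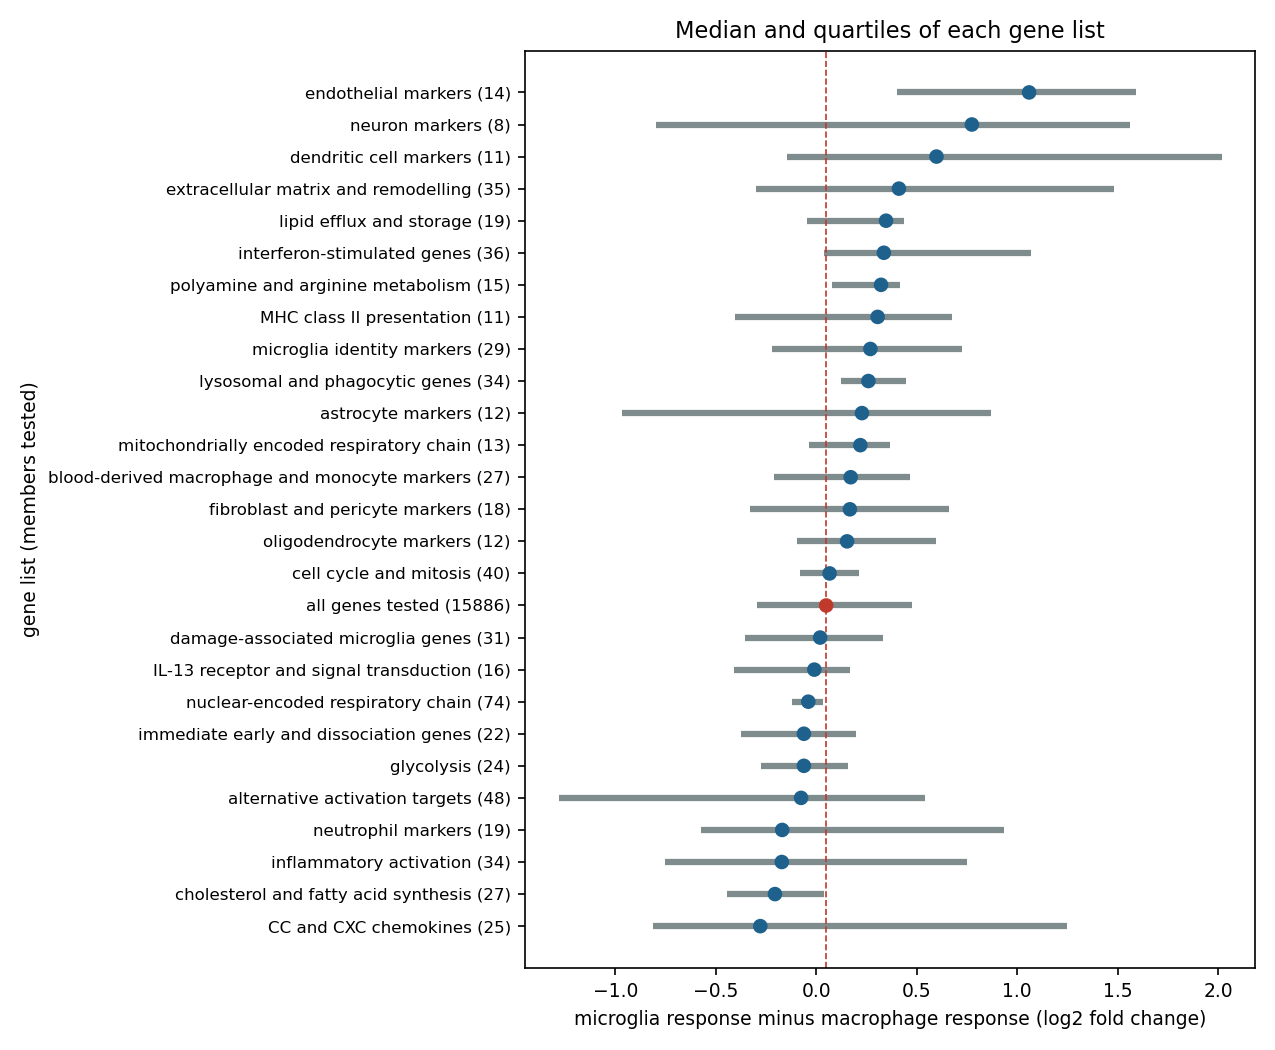
Median (points) and quartiles (bars) of the interaction, in log2 fold change, for each gene list with at least 8 members tested, without the endoplasmic reticulum list that was put together after its values were seen, with the number of members in brackets. Medians lie between -0.28 for chemokines and 1.06 for endothelial markers, beside 0.05 for all 15886 tested genes (red point and dashed line).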

How the data were processed

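Microglia and macrophages sorted from injured spinal cord were sequenced as low-input (SMART-seq2) paired-end RNA-seq libraries. The deposited table holds estimated counts per gene, which the authors made with STAR 2.5.3a on GRCm38 and RSEM 1.3.0 and which are whole numbers as deposited. Each gene was placed by its identifier in GENCODE M21 (GRCm38), which matched 50690 of 53465. Genes were kept by edgeR's filterByExpr over the 4 groups, and 15886 were tested.

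Counts were scaled by TMM, and the 12 libraries were fitted in 1 model with a mean per group by edgeR 4.0.16 quasi-likelihood in R 4.3.3. The same fit gave the response within each cell type. P-values were adjusted by Benjamini-Hochberg over all tested genes, with a threshold of 0.05. Standard errors are the log2 fold change divided by the square root of F. Normalized counts are TMM-scaled to the mean library, and n = 3 mice per group throughout. Where a symbol occurs more than once, the row with the most counts was used.

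Alternatives were DESeq2 1.42.0 (size factors, and its Wald test), limma 3.58.1 voom with a weight per cell type, other filters, all 18 libraries, the mouse as a block and each mouse left out. Libraries of 1 mouse share an animal per the labels. The correlation of their deviations from the group means, across 10774 genes, was 0.16, 0.25 and 0.07 in PBS mice 1, 2 and 3 and 0.15, 0.15 and 0.21 in rIL-13 mice 5, 6 and 7. The code was tested on simulated counts.

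Named genes were the called genes with a mean of at least 100 normalized counts in a group and no overlap per mouse, 10 per direction at most, or the 5 with the lowest p where fewer than 5 were called, a panel of IL-13 genes (1 of them is not reported here), and up to 4 genes per list by p. Il1r2, Ccdc80, Il13ra2 and the endoplasmic reticulum genes were named after their values were seen. Members and lists were chosen with earlier results of these data known. Confidence levels are 95%. Fragments carry no molecular identifiers, so floors of 3 counts cover counting error only.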

Additional observations from a re-analysis of the deposited data

Results flagged for a closer look

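The rIL-13 responses of microglia and macrophages were called different in 3 genes by the interaction test. They were Tnfsf8, with an interaction of 5.79, Pxylp1, with -8.31, and Pdia4, with -1.45. Tnfsf8 was called in macrophages alone, where it fell, and Pdia4 in macrophages alone, where it rose. Pxylp1 was called in microglia alone, and its value rests on rIL-13 libraries with at most 1 count.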

How the results depend on the processing

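The number of genes whose response differed was 3 (1 above 0 and 2 below). It was 7 (3 and 4) without a filter on low counts, 162 (77 and 85) with DESeq2, 0 with limma voom (0 and 0), and between 0 and 13 with a mouse left out (0 to 7 above, 0 to 6 below). With at least 10 counts in every library 0 of the 2 calls lay above 0, with the replicate block 0 of the 3, and among genes with over 3 counts in every group, an alternative chosen after seeing the data, 1 call lay below 0. DESeq2 size factors left the same 3 genes called. With all 18 libraries 4 genes were called, of which Pdia4 alone was among the 3, and Tnfsf8 and Pxylp1 had adjusted p of 0.395 and 0.401. The cause of these differences was not tested, beyond the fewer genes or mice that some settings hold. No interaction of the 3 called genes changed sign.

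Some interactions, none of them called, changed sign. With a mouse left out, P2ry12 ran from -0.47 to 0.23 and Ccl22 from -0.58 to 7.68, where the value above 0 in P2ry12 and the one below 0 in Ccl22 came without rIL-13 mouse 6, as did -0.08 for Il13ra1 (up to 0.12). Stat6 ran from -0.028 (without PBS mouse 1) to 0.23, Trem2 from -0.11 (without rIL-13 mouse 5) to 0.32, Socs1 from -0.21 to 0.65 and Xbp1 from -0.15 to 0.19. Xbp1 was also -0.031 with DESeq2 and with its size factors and -0.05 with all 18 libraries. With the mouse as a replicate block the 3 called genes had adjusted p of 0.0635, 0.158 and 0.0513 (Tnfsf8, Pxylp1, Pdia4), and the block changed no call of a named gene beyond these and Il1r2, Ccdc80 and Gja1. Fitting each cell type apart, also chosen after seeing the data, called 37 genes in microglia and 523 in macrophages. Low input limits what a gene at 0 can show, and 3 mice per group limit the tests.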

Other observations

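Pdia4 was followed by other genes of its compartment. A list of 37 genes for protein folding and translocation in the endoplasmic reticulum was put together after Pdia4 and several of these genes had been seen, so it carries no test and its direction is not independent evidence. Of the 37, 32 had an interaction below 0 and 5 above, and 21 had an unadjusted p under 0.05, all of them below 0, beside 2.78% of all genes. The per-mouse differences of 25 of them were lower in every rIL-13 mouse than in every PBS mouse, beside 6.33% of all genes. The median interaction was -0.54, from -0.59 to -0.42 over the alternatives and -0.55 without mouse 6. In macrophages 8 of them rose and in microglia 0, beside 0.743% and 0.661% of all genes, with median responses of 0.52 and 0.14.

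Sdf2l1, a partner of the chaperone BiP, rose in macrophages (0.84, adjusted p = 0.0139) and was -0.14 in microglia, an interaction of -0.98 ± 0.20. Pdia5, another disulfide isomerase, rose in macrophages by 1.47 (adjusted p = 0.000699), with an interaction of -0.88 ± 0.22. Rpn1, a subunit of the oligosaccharyltransferase, rose there by 0.72 (adjusted p = 0.0155), with -0.56 ± 0.18. Pdia3, Calr and the HSP90 family chaperone Hsp90b1 had interactions of -0.69 ± 0.19, -0.64 ± 0.21 and -0.55 ± 0.18, and Hspa5, which is BiP, of -0.56 ± 0.23. Among the stress regulators, Xbp1 was at 0.01 ± 0.24 and Ddit3 at 0.32 ± 0.40. By edgeR only Pdia4 was called, and DESeq2 called 8 of the list (Pdia4, Sdf2l1, Pdia5, Spcs2, Pdia3, Hsp90b1, Surf4 and Serp1). With rIL-4 in place of rIL-13, by edgeR on all 18 libraries, the interactions of Pdia5, Rpn1, Pdia3, Calr and Hsp90b1 were -2.40, -0.88, -0.87, -0.94 and -0.92. Their adjusted p was 0.0144, 0.0244, 0.0315, 0.0282 and 0.0146. The rIL-4 interactions of Sdf2l1 and Hspa5 were -0.82 and -0.71 (adjusted p = 0.0623 and 0.259).

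The promoters of Hsp90b1 and Calr are shown because they hold the ER stress element (CCAAT and CCACG separated by 9 bases of any kind), printed in capitals and searched on both strands. Sequences are from RefSeq (GRCm38.p6), 5′ to 3′ on the strand of the gene.
Hsp90b1, chr10:86705395-86705694, minus strand: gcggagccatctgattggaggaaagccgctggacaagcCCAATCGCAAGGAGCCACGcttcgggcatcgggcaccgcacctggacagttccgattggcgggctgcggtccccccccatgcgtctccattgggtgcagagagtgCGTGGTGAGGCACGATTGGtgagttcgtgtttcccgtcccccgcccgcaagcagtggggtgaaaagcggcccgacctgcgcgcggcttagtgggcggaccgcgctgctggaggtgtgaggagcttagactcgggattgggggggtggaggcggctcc
Calr, chr8:84846882-84847181, minus strand: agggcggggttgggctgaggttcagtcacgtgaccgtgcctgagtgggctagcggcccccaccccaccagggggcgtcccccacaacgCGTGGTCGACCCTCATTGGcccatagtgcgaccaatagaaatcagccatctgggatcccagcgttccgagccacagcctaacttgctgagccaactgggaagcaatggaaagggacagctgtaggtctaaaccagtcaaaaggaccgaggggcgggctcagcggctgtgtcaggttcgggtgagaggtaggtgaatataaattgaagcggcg
It was in 7 of the 32 members with a promoter sequence (21.9%), in 0.119% of all mouse promoters of this length and in 0.169% of tested genes. As the list was put together after values were seen, its share is a description and carries no test. The promoter of Pdia4 does not hold the element. Of the 43 genes that rose in both cell types 0 did, which cannot be told apart from a share of 0.169%.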
